A study of Mus musculus with 9 samples.

Results

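RNA levels in induced Plagl1 mutant cells were set against those of uninduced control cells, gene by gene, to describe which features of the uninduced state were left and which were kept. The cells were mandibular periosteal progenitors of the mouse, grown out of the membrane that covers the lower jaw. The mutant cells (CTSK-iCre;Plagl1 fl/fl) had spent 3 days in osteogenic medium with dexamethasone, a synthetic glucocorticoid, at 100 nM, ascorbic acid at 50 ug/ml and b-glycerophosphate at 5 mM. The control cells (Plagl1 fl/fl) were sampled at day 0 without these additions. Control cells of the same genotype after the same 3 days in osteogenic medium completed the series and are given beside some results. Each group held 3 libraries, so 6 of the 9 libraries entered the comparison, and total counts ran from 16204327 to 19859744 per library over the 9 libraries. Of 21958 genes in the table, 13013 had enough reads to be tested, and the 12548 of these on autosomes are described here.

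Both genotypes carried the floxed Plagl1 allele, and Cre came from the Ctsk promoter, known for its activity in osteoclasts and in a class of periosteal stem cells. Genotype, osteogenic medium and 3 days of culture all differed between mutant day 3 and control day 0, and this comparison alone cannot tell their shares apart. Control day 3 differed from control day 0 by medium and days of culture together, and from mutant day 3 by the labelled genotype. Uninduced mutant cells were not analysed here, so a genotype difference present before induction cannot be told from one that arose with it. The labels used here do not state the age or number of mice. Whether the libraries of a group stem from different cultures or mice is not labelled either, and the p-values therefore reflect the scatter among these libraries alone, which could be technical. Genes on the Y chromosome also differed: Kdm5d stood at 11.6, 11.7 and 13.2 CPM (read counts scaled to a common library size) in mutant day 3. It stood at 35.3, 37.6 and 40.4 CPM in control day 3 and at 33.8, 34.9 and 34 CPM in control day 0. The labels used here give no sex, and the description keeps to autosomes. Any difference in sex between mutant and control libraries cannot be told apart from genotype, and keeping to autosomes does not remove it.

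The periosteum holds progenitors that can form bone and cartilage, and those that express Ctsk are known for making bone directly, without a cartilage stage. When progenitors become osteoblasts they usually stop dividing, switch on Runx2 and its partner Sp7, and secrete a matrix of type I collagen that mineralizes with the help of the phosphatase Alpl. Plagl1 encodes a zinc-finger transcription factor; the gene is imprinted, and the protein is known to slow cell division and to regulate other imprinted genes. Dexamethasone acts through the glucocorticoid receptor, which switches on genes such as Fkbp5 and Per1 in most cell types.

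The targeted gene, Plagl1 (chr10:12936248-13007438, GRCm39), was measured first. It stood at 26.3, 24.2 and 24.8 CPM in mutant day 3 and at 43.9, 44.9 and 45.8 CPM in control day 3, against 35.5, 38.4 and 35.9 CPM in control day 0. The mutant libraries thus lay below both control groups without overlap but kept most of the transcript. In mutant day 3 it was lower than in control day 0 by a log2 fold change of -0.54 ± 0.07 (SE), with an adjusted p of 4.59e-07 in edgeR's quasi-likelihood test. A read count over the whole gene cannot tell a full transcript from one that lacks the floxed part.

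Most of the expressed genome stood at another level. Of the 12548 autosomal genes tested, 8567 (68.3%) were called at an adjusted p below 0.05, of which 4231 (33.7% of the genes tested) were higher and 4336 (34.6%) were lower in mutant day 3. Changes of at least 2-fold were rarer, with 1367 genes (10.9%) higher and 1184 genes (9.44%) lower. A gene was called kept where the 95% interval of its log2 fold change lay wholly within 1.3-fold of the uninduced level in either direction. That held for 3200 genes (25.5%), of which 866 (6.9% of the genes tested) were also called, and 1647 genes (13.1%) were neither called nor kept. Kept genes can thus also be among the higher or lower ones in the counts for gene lists. In control day 3 against control day 0, 8205 genes (65.4%) were called, and between the genotypes at day 3, 2209 genes (17.6%) were. The libraries of mutant day 3 and control day 0 did not overlap for 8828 genes (70.4%). The median log2 fold change of all autosomal genes tested was -0.00.

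How finely a gene could be judged depended on its depth. Of the 4169 genes that averaged at least 50 CPM over both groups, 38.5% were kept and 77.9% were called. Of the 2438 genes under 5 CPM, 0.287% were kept and 54.3% were called, so a kept level could hardly be shown for weak genes. At the edge of the band, Fbxo38 (log2 fold change 0.26, upper limit 0.378) still counted as kept, and Strn4 (-0.25, lower limit -0.379) did not. On the first principal component of all 9 libraries, which held 85.7% of the variance, the mutant libraries lay between -48 and -45.9 and control day 3 between -36.6 and -35.3, against 82.2 to 83.6 in control day 0. The mutant libraries thus lay farther from control day 0 than the induced control libraries did. Spread within groups was small, with a biological coefficient of variation of 0.0715 among mutant libraries and 0.0492 among control day 0 libraries. The shared fit used 0.0558, which lies below the mutant value.

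**Figure D1:**
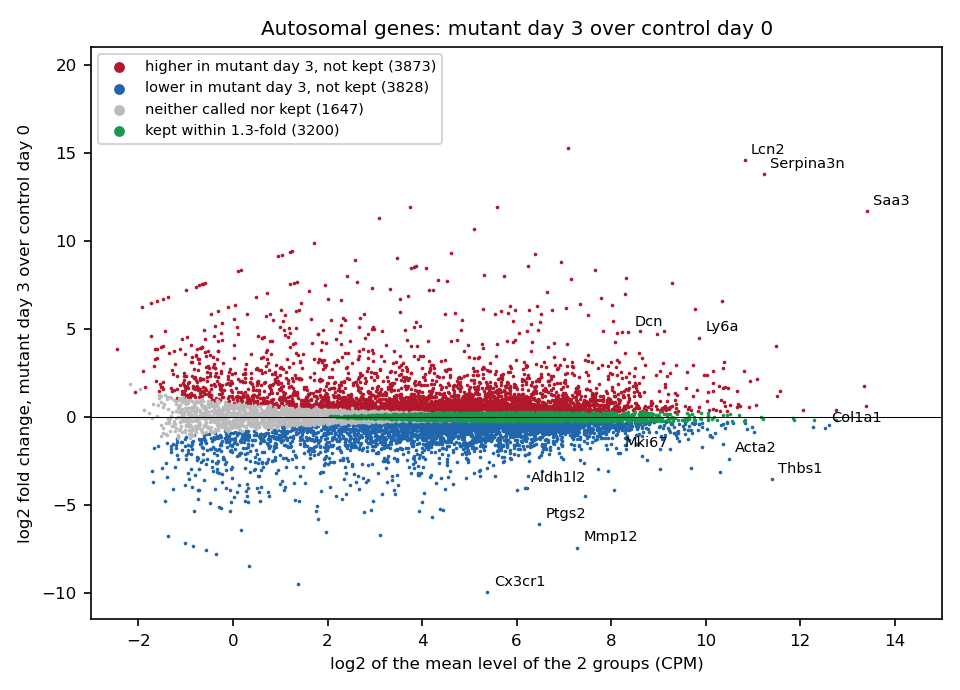
Log2 fold change of mutant day 3 over control day 0 (vertical axis) against the log2 mean level of both groups in CPM (horizontal axis), 1 point per autosomal gene tested. Green points are the 3200 genes kept within 1.3-fold; red and blue points are called genes outside that class, 3873 higher and 3828 lower in mutant day 3.

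Gene lists by function were counted in the same way and are read against these shares. In the lists for replication and mitosis all tested members were lower in mutant day 3, in those for glucocorticoid response and acute-phase proteins all were higher, and ribosomal proteins were mostly kept. The lists differ in size and some share members. A member almost without reads in control day 0 passed the read filter through the day 3 groups, so its call could only be higher. The reverse holds for a member seen in control day 0 alone, and such calls give no result for their list.

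**Figure D2:**
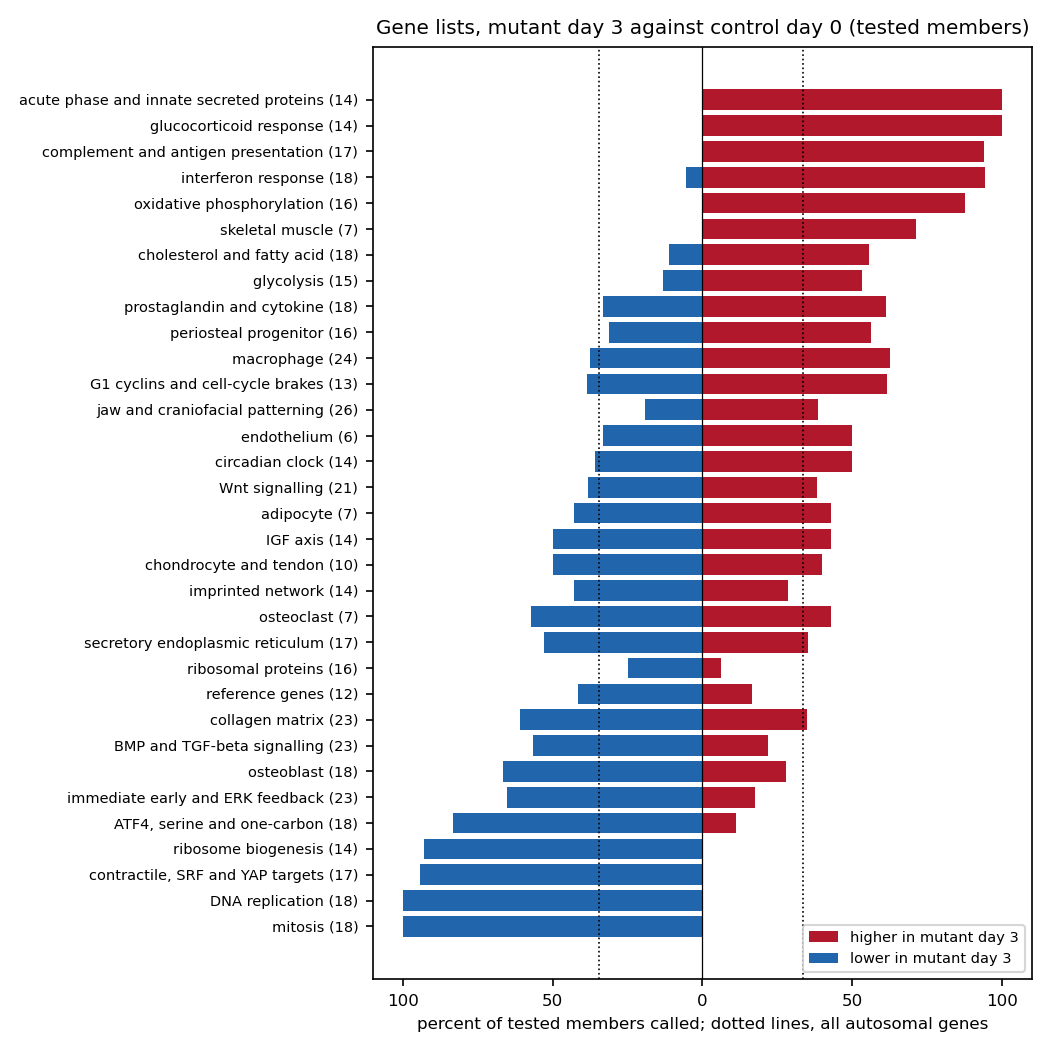
Percent of the tested members of each gene list called higher (red, to the right) or lower (blue, to the left) in mutant day 3 than in control day 0, with the number tested in brackets. Dotted lines mark the shares over all autosomal genes, 33.7% higher and 34.6% lower; mitosis and DNA replication reach 100% lower, with 18 members each.

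Genes of cell division were lower in mutant day 3 throughout both lists. All 18 tested genes of DNA replication and all 18 of mitosis fell, with median log2 fold changes of -1.30 and -1.43, against -0.00 over all genes. Mki67, a marker of cycling cells, stood at 111, 104 and 115 CPM in mutant day 3, against 452, 492 and 424 CPM in control day 0. Cdk1, the kinase that drives entry into mitosis, stood at 44.7, 43.8 and 43.8 CPM in mutant day 3, against 89.1, 89.7 and 93.8 CPM in control day 0. The groups stood far apart for both genes, at log2 fold changes of -2.05 ± 0.07 (adjusted p = 5.11e-17) and -1.04 ± 0.06 (adjusted p = 5.38e-13). Within the replication list the decrease ran from -0.89 for Rrm1, a subunit of ribonucleotide reductase, to -1.82 for Mcm5, a subunit of the replicative helicase. In bulk RNA, fewer cells of a type and less RNA per cell cannot be told apart.

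The decrease in mitosis genes was smaller than in control day 3: 14 of 18 were higher in mutant day 3 than in control day 3, where 8.02% of all genes were. Mki67 stood at 94.7, 79.9 and 80.3 CPM in control day 3, and mutant day 3 was 0.37 ± 0.07 above it on the log2 scale (adjusted p = 0.000675). For the replication list the same comparison called 1 gene higher and 1 lower. Both contrasts use the mutant libraries, so their values are given side by side and are not independent.

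Genes that gate the cell cycle moved in both directions. Ccnd1 and Ccnd2, cyclins that carry cells through G1, fell by 1.47 and 1.80 on the log2 scale, while Ccnd3, a cyclin D often linked to differentiated cells, rose by 1.03. The inhibitors of cyclin-dependent kinases Cdkn1a and Cdkn1b rose by 0.53 and 0.38. Cdkn1c, an imprinted inhibitor, stood at 30, 31.5 and 27.4 CPM in mutant day 3, against 2.48, 2.4 and 3.3 CPM in control day 0, a log2 fold change of 3.45 ± 0.13. Rb1 and Btg2, which also restrain division, fell by 0.31 and 0.60. In this list 8 of 13 tested members rose and 5 fell, against 33.7% and 34.6% of all genes. Control day 3 had 8 higher and 4 lower than control day 0. Between the genotypes at day 3, 1 was higher and 7 were lower in mutant day 3, against 8.02% and 9.59% of all genes.

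The promoters of mitosis genes are known for pairing a CHR element (TTTGAA), bound by the complex that represses these genes in resting cells, with CCAAT boxes (CCAAT), bound by NF-Y. Promoters from RefSeq (build GRCm38.p6, the 250 bases before the start, both strands searched) were found for 14 of the 18 mitosis genes. Of these, 6 (42.9%) held TTTGAA, against 18.3% of all 27025 genes with a promoter, and 12 (85.7%) held CCAAT, against 37.5%. In the replication list 2 of 15 (13.3%) held TTTGAA and 10 of 15 (66.7%) held CCAAT. The stretches below, the last 150 bases before the start of 2 mitosis genes that fell, are printed 5′ to 3′ along the gene, with both elements, on either strand, in capitals.
Cdk1 promoter (chr10:69352913-69353062, - strand): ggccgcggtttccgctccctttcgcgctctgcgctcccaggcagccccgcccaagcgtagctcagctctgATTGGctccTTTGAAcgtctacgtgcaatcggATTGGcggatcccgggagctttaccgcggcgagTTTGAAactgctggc
Ccnb2 promoter (chr9:70421555-70421704, - strand): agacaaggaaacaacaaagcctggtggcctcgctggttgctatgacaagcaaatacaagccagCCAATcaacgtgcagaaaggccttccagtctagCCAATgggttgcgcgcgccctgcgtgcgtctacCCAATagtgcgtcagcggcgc
Cdk1 shows both elements, while the Ccnb2 stretch shows CCAAT boxes alone, as its TTTGAA lies farther upstream within the 250 bases. A match describes the letters of the sequence and not binding.

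Contractile genes of the uninduced cells were also lower in mutant day 3. Of 17 tested genes for contractile proteins and for targets of the SRF and YAP regulators, which respond to stretched, spread cells, 16 fell and none rose, with a median log2 fold change of -1.85. Acta2, smooth muscle actin, stood at 463, 504 and 425 CPM in mutant day 3, against 2454, 2397 and 2416 CPM in control day 0. Ccn2, a secreted YAP target, stood at 127, 125 and 109 CPM in mutant day 3, against 969, 900 and 939 CPM in control day 0. Log2 fold changes were -2.38 ± 0.06 for Acta2 (adjusted p = 4.95e-19) and -2.96 ± 0.07 for Ccn2 (adjusted p = 2.5e-20), with no overlap of libraries. Tpm1, a tropomyosin, and Vcl, which anchors actin at adhesions, fell by 1.85 and 1.68. Amotl2, a YAP target as well, was kept at 214, 221 and 209 CPM in mutant day 3, against 210, 203 and 192 CPM in control day 0. For 13 of the 17 genes mutant day 3 also lay below control day 3, where 9.59% of all genes did. Cytoplasmic actins parted: Actg1 fell by 1.17 on the log2 scale, and Actb, at 3253, 3854 and 3280 CPM in mutant day 3 and 4024, 4077 and 3811 CPM in control day 0, was called lower but kept within 1.3-fold.

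Matrix genes divided into a part that was left, a part that was gained and a part that was kept. Of 23 tested collagen and matrix genes 14 fell, 8 rose and 2 were kept, both among those that fell. The shares over all genes were 34.6%, 33.7% and 25.5%. Thbs1, thrombospondin 1 (chr2:117942357-117957614), stood at 442, 390 and 434 CPM in mutant day 3 and at 1315, 1265 and 1286 CPM in control day 3, against 5362, 5011 and 4623 CPM in control day 0. It showed the lowest log2 fold change of the list, -3.57 ± 0.06 (adjusted p = 9.14e-22). Tnc, the adhesion-modulating tenascin C, fell by 3.07 and Col8a1, a short-chain collagen, by 2.23. The libraries of both groups stood far apart for each of these genes.

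Other matrix genes were gained, without a clear split by kind: of the collagen VI chains, Col6a1 and Col6a2 rose and Col6a3 fell. Against control day 3, 15 of the 23 genes were lower and 2 higher in mutant day 3, where 9.59% and 8.02% of all genes were. Dcn, decorin, a small proteoglycan that coats collagen fibrils, stood at 630, 635 and 643 CPM in mutant day 3 and at 193, 199 and 217 CPM in control day 3, against 22.2, 20.9 and 24.7 CPM in control day 0. That is a log2 fold change of 4.82 ± 0.07 over control day 0 (adjusted p = 1.74e-23). Postn, periostin, named after the periosteum, rose by 1.48, and Col3a1, the collagen of loose connective tissue, by 1.16. Lox, which cross-links collagen, stood at 4869, 4182 and 4852 CPM in mutant day 3 and at 5290, 5352 and 5327 CPM in control day 0, and Fbn1, fibrillin 1, had a log2 fold change of -0.22 ± 0.06. Both were called lower and kept within 1.3-fold. Col12a1, a collagen on fibril surfaces, went to opposite sides: 1716, 1333 and 1747 CPM in mutant day 3 and 3481, 3508 and 3555 CPM in control day 3, against 2570, 2479 and 2221 CPM in control day 0.

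Amino acid supply genes were left too. The list for ATF4, a factor that switches on amino acid transport and synthesis, and for serine and one-carbon metabolism had 15 of 18 tested members lower and 2 higher, with a median log2 fold change of -1.70. Aldh1l2, a mitochondrial folate enzyme, stood at 9.13, 8.37 and 7.09 CPM in mutant day 3, against 137, 140 and 131 CPM in control day 0. Slc7a5, which imports large neutral amino acids, stood at 16.3, 20.2 and 16.5 CPM in mutant day 3, against 216, 213 and 200 CPM in control day 0. Both had libraries far apart, with log2 fold changes of -4.05 ± 0.09 (adjusted p = 1.05e-20) and -3.57 ± 0.07 (adjusted p = 6.52e-21). Psat1 and Phgdh of serine synthesis fell by 2.62 and 1.84, and Asns, asparagine synthetase, by 2.09. Atf4 itself fell by 0.90. Slc3a2, the partner chain of Slc7a5 at the cell surface, was kept, at 253, 277 and 237 CPM in mutant day 3 and 237, 241 and 247 CPM in control day 0. For 12 of the 18 members mutant day 3 was lower than control day 3 as well.

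The C/EBP-ATF element (TGATGNAA, where N is any base), to which ATF4 binds with a C/EBP partner, stood within 250 bases before the start in 3 of the 12 fallen members with a promoter (25%), against 3.91% of all genes. These were Asns, Chac1 and Pck2. The Asns stretch is shown for the element, in capitals, printed 5′ to 3′ along the gene.
Asns promoter (chr6:7693210-7693359, - strand): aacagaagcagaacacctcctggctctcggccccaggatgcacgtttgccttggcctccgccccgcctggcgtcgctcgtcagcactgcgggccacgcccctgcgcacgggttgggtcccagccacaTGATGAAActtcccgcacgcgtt
Chac1, which degrades glutathione, stood at 1.36, 1.85 and 1.43 CPM in mutant day 3, against 19.9, 17.9 and 18.9 CPM in control day 0.

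Genes that respond early to growth factors mostly fell. Of 23 tested immediate early genes and feedback genes of the ERK pathway 15 fell, 4 rose and 3 were kept. The shares over all genes were 34.6%, 33.7% and 25.5%. Control day 3 had 16 lower and 4 higher than control day 0, at a median log2 fold change of -1.06, against -1.09 in mutant day 3. Between the genotypes at day 3, 18 of the 23 were not called. Egr1, an immediate early transcription factor, stood at 6.29, 7.28 and 6.12 CPM in mutant day 3, against 64.1, 71.9 and 68.4 CPM in control day 0. Hbegf, a ligand of the EGF receptor, stood at 1.3, 0.866 and 1.03 CPM in mutant day 3, against 46.7, 36.2 and 38.4 CPM in control day 0. These are log2 fold changes of -3.37 ± 0.09 and -5.24 ± 0.16. Myc, a driver of growth, fell by 0.98 and Dusp6, a phosphatase that dampens ERK, by 0.89. Members of the AP-1 family were split: Fosl1 and Atf3 fell by 1.71 and 3.10, while Fos and Junb rose by 0.98 and 0.51. Jun was kept (log2 fold change 0.03 ± 0.06), Fosl2 was called higher and kept, and Fosb and Jund were not called (0.10 ± 0.29 and -0.32 ± 0.15).

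Cytokine and prostaglandin genes changed in both directions, with 11 of 18 tested members higher and 6 lower, against 33.7% and 34.6% of all genes. Ptgs2, cyclooxygenase 2, stood at 3.32, 2.19 and 2.06 CPM in mutant day 3 and at 6.21, 4.12 and 7.21 CPM in control day 3, against 188, 165 and 173 CPM in control day 0. It had nearly vanished in mutant day 3, at a log2 fold change of -6.12 ± 0.13 (adjusted p = 2.02e-20). Lif, a cytokine of the IL-6 family, fell by 3.72, and Vegfa, the angiogenic factor, by 2.18. Il33, an alarm cytokine of stromal cells, stood at 37, 38.5 and 36.3 CPM in mutant day 3, against 0.389, 0.111 and 0.232 CPM in control day 0. Tnfsf11, the osteoclast factor RANKL, rose by 2.13, while its decoy receptor Tnfrsf11b fell by 3.02. Csf1, a growth factor of macrophages, fell by 0.97 and Il6 rose by 1.95.

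**Figure D3:**
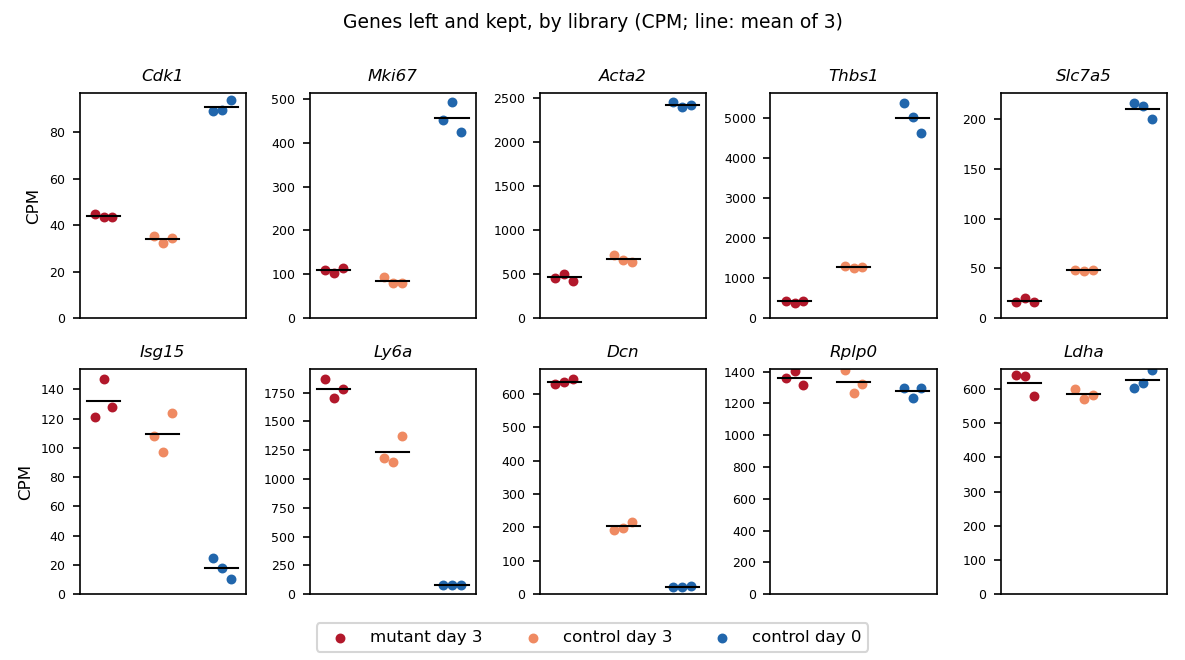
CPM of 10 genes by library, with mutant day 3 (dark red), control day 3 (orange) and control day 0 (blue) from left to right; lines are means of 3 libraries and each axis starts at 0. Cdk1, Mki67, Acta2, Thbs1 and Slc7a5 are lower and Isg15, Ly6a and Dcn higher in mutant day 3 than in control day 0, while Rplp0 and Ldha are kept.

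Ribosome genes separated into production and product. All 14 tested genes of ribosome biogenesis had a negative log2 fold change and 13 of them fell, with a median of -0.62. Control day 3 had all 14 lower than control day 0, at a median of -0.69. Ncl, nucleolin, stood at 439, 456 and 428 CPM in mutant day 3, against 851, 835 and 871 CPM in control day 0, a log2 fold change of -0.95 ± 0.05. Nop58 and Nop56, core proteins that guide methylation of ribosomal RNA, fell by 1.31 and 1.22. Ribosomal proteins themselves were kept in 15 of 16 cases, against 25.5% of all genes. Rplp0 stood at 1363, 1406 and 1317 CPM in mutant day 3, against 1299, 1232 and 1300 CPM in control day 0. The other tested member, Rpl13a, had a log2 fold change of -0.73 but stood under 10 CPM in every library, far below the other ribosomal proteins, and its reads may be shared with copies elsewhere in the genome, so its value is uncertain.

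What was gained was led by secreted acute-phase proteins, which liver and stroma release in inflammation. All 14 tested members of that list rose, with a median log2 fold change of 9.33, or 8.63 with the 4 members that had no read in control day 0 set at their lower bound. These 4 passed the read filter through the day 3 groups alone, so their call could only be higher. Pglyrp1, with 8 reads in mutant day 3 and 7 reads in control day 0, was not tested. Saa3, a serum amyloid, stood at 20076, 24035 and 21265 CPM in mutant day 3 and at 16125, 16255 and 16819 CPM in control day 3, against 4.28, 8.58 and 7.13 CPM in control day 0. Lcn2, lipocalin 2, which binds iron carriers of bacteria, stood at 3398, 3888 and 3625 CPM in mutant day 3, against 0.243, 0 and 0.174 CPM in control day 0. Summed over the list, transcripts made up 32867 to 38062 CPM in mutant day 3 and 25678 to 26705 CPM in control day 3, against 414 to 433 CPM in control day 0. Serpina3m had no read in control day 0 and was at least 5029-fold higher in mutant day 3, with a floor of 3 counts over the group, and Cxcl13, a chemokine of B cells, was at least 495-fold higher. Reads may be shared among the Serpina3 and Saa families, so single members are uncertain. Of these 14 genes 9 were higher and 1 was lower in mutant day 3 than in control day 3.

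Outside the lists, the largest gains included membrane and enzyme genes. Ace, angiotensin-converting enzyme, stood at 149, 163 and 142 CPM in mutant day 3 and at 51.1, 52.2 and 65.6 CPM in control day 3, against 0.535, 0.334 and 0.29 CPM in control day 0. Fmo2, a flavin monooxygenase, stood at 241, 228 and 270 CPM in mutant day 3, against 0.778, 0.668 and 0.174 CPM in control day 0. Both also exceeded control day 3, by log2 fold changes of 1.43 ± 0.08 and 0.85 ± 0.07. Jaml, an adhesion molecule of leukocytes, had 4940 reads in mutant day 3 and 1 read in control day 0, a ratio of 5332 with a 95% counting interval of 957 to 210646.

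The glucocorticoid list rose as a whole, with 14 of 14 tested members higher and a median log2 fold change of 2.42. Fkbp5, which binds and dampens the receptor, stood at 728, 732 and 736 CPM in mutant day 3, against 77.7, 71.3 and 73.2 CPM in control day 0. Zbtb16, a zinc-finger factor, stood at 51.6, 44.3 and 56.6 CPM in mutant day 3, against 1.12, 1.11 and 0.29 CPM in control day 0. Control day 3 cells, also given dexamethasone, had all 14 higher as well, with Fkbp5 at 656, 659 and 657 CPM. Of the 14, 5 were higher and 2 lower in mutant day 3 than in control day 3. Pdk4, which turns glucose oxidation down, was 0.63 ± 0.05 lower there on the log2 scale.

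Interferon-stimulated genes were also gained, with 17 of 18 tested members higher and a median log2 fold change of 2.22. Irf7, a factor that amplifies interferon production, stood at 747, 803 and 720 CPM in mutant day 3, against 33.5, 28.8 and 16 CPM in control day 0. Isg15, a ubiquitin-like protein, stood at 121, 147 and 128 CPM in mutant day 3, against 24.4, 18 and 10.3 CPM in control day 0. The control day 0 libraries varied more for these genes than the mutant ones but did not overlap them. Ifi27 was lower, at 31.8, 35 and 36.5 CPM in mutant day 3 and 72.8, 67.3 and 80.2 CPM in control day 0. In complement and antigen presentation 16 of 17 tested genes rose, with a median of 2.11. Control day 3 had 15 of 17 higher than control day 0, at a median of 2.26. Of the 17, 8 were higher and 0 lower in mutant day 3 than in control day 3. C3, the central complement protein, stood at 1650, 1839 and 1662 CPM in mutant day 3, against 18.3, 35.2 and 21.4 CPM in control day 0, and B2m, the light chain of class I molecules, rose by 2.11 on the log2 scale. Cd74, the class II invariant chain, was not called (log2 fold change -0.52 ± 0.29) and stood under 2.1 CPM in every library.

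The core of the interferon-stimulated response element (GAAA, any 2 bases, GAAA; both strands) was found in 7 of the 12 risen interferon genes with a promoter (58.3%), against 3.46% of all genes. It is shown for Isg15 and Ifit1, with each copy on either strand in capitals, since both carry overlapping or repeated copies close to the start.
Isg15 promoter (chr4:156200819-156200968, - strand): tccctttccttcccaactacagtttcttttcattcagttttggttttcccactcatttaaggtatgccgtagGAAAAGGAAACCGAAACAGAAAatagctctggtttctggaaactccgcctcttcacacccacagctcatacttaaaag
Ifit1 promoter (chr19:34640739-34640888, + strand): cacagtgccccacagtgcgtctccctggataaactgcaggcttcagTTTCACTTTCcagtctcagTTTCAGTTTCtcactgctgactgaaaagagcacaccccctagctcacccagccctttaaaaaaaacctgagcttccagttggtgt
Ifit1, which binds foreign RNA, stood at 177, 170 and 176 CPM in mutant day 3, against 32.7, 20.2 and 19.4 CPM in control day 0.

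Bone genes did not, as a list, stand above the uninduced level. Of 18 tested osteoblast genes 12 were lower and 5 higher in mutant day 3 than in control day 0, with a median log2 fold change of -0.46, while control day 3 had 6 lower (32.4% of all genes were) and 8 higher (33%) than the same control day 0 libraries. Runx2 (chr17:44806874-45125684), the master factor of osteoblasts, stood at 31.2, 28.2 and 27.8 CPM in mutant day 3 and at 47.7, 52.3 and 48.4 CPM in control day 3, against 42.1, 40.2 and 38.1 CPM in control day 0. Col1a1, the main chain of bone collagen, stood at 4699, 5083 and 4055 CPM in mutant day 3 and at 8150, 7568 and 7701 CPM in control day 3, against 7140, 7704 and 6802 CPM in control day 0. Both genes lay below the uninduced libraries without overlap, by log2 fold changes of -0.47 ± 0.07 (adjusted p = 6.29e-06) and -0.65 ± 0.07 (adjusted p = 2.08e-08). Col1a2, the second chain, fell by 0.48 and Sp7, which acts after Runx2, by 0.75. Summed over the list, transcripts were 14096 to 16393 CPM in mutant day 3 and 22937 to 24657 CPM in control day 3, against 19363 to 20580 CPM in control day 0.

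A few bone genes stood above the uninduced level in mutant day 3. Ibsp, bone sialoprotein, stood at 25.7, 30.5 and 25.7 CPM in mutant day 3 and at 39.5, 42 and 45 CPM in control day 3, against 6.96, 4.46 and 5.68 CPM in control day 0. Spp1, osteopontin, stood at 1867, 1767 and 1510 CPM in mutant day 3 and at 2300, 2126 and 1800 CPM in control day 3, against 922, 1029 and 914 CPM in control day 0. Both lay between the control groups by their means, though the mutant and control day 3 libraries overlapped for Spp1. Omd, a bone proteoglycan, Pth1r, the parathyroid hormone receptor, and Smpd3, a sphingomyelinase needed for mineralization, rose by 1.04, 0.74 and 0.66 on the log2 scale. Sparc, osteonectin, was kept, at 3663, 3725 and 3317 CPM in mutant day 3 and 4840, 4671 and 4662 CPM in control day 3, against 3714, 3651 and 3885 CPM in control day 0.

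Alpl was at the limit of the test. It stood at 10.8, 10.3 and 10.2 CPM in mutant day 3 and at 22.3, 26.1 and 21.1 CPM in control day 3, against 13.1, 11.4 and 12.7 CPM in control day 0. The mutant value was near the uninduced one, with a log2 fold change of -0.25 ± 0.11 and an adjusted p of 0.0488, and 11 of 14 alternative settings lost the call, with adjusted p values up to 0.155. Dlx5, a homeobox factor of osteoblasts, had a log2 fold change of -0.44 ± 0.18 and lost its call in 6 of 14. Late genes were hardly expressed in any group: Bglap, osteocalcin, had 0 reads in mutant day 3 and 3 reads in control day 0, and Dmp1, of osteocytes, had 2 reads in mutant day 3 and 4 reads in control day 0.

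**Figure D4:**
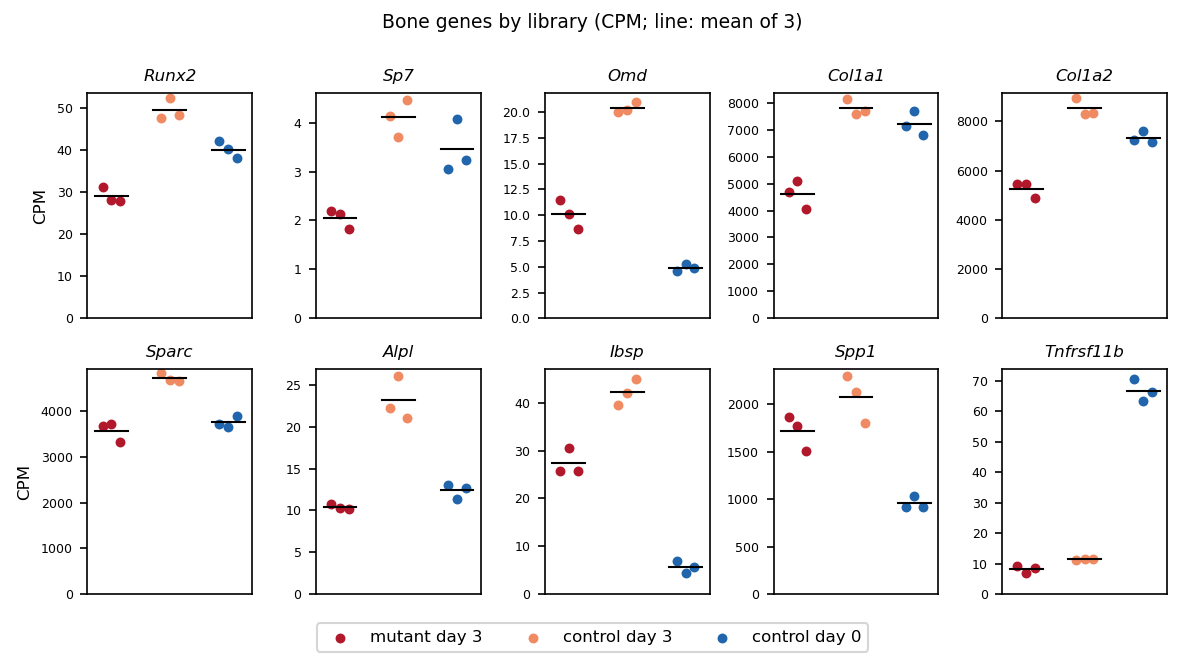
CPM of 10 bone genes by library, with mutant day 3 (dark red), control day 3 (orange) and control day 0 (blue) from left to right; lines are means of 3 libraries and each axis starts at 0. Runx2, Sp7, Col1a1 and Col1a2 are lowest in mutant day 3, Sparc and Alpl lie near control day 0, and Omd, Ibsp and Spp1 lie between the control groups.

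Progenitor and stromal markers were present in all libraries and had a higher sum in both day 3 groups than in control day 0. Of 16 tested periosteal progenitor markers 9 were called higher and 5 lower, against 33.7% and 34.6% of all genes. Among the 9, Prrx1 was also kept within 1.3-fold and Axin2, a Wnt target, lost its call in 6 of 12 alternative settings. The summed level of all 16 was 5903 to 5973 CPM in mutant day 3, against 1970 to 2043 CPM in control day 0. Control day 3 stood at 5176 to 5415 CPM, with 8 of 16 higher and 5 lower than in control day 0. Between the genotypes at day 3, 4 were higher and 4 lower in mutant day 3. Ly6a, the stem cell antigen Sca-1, stood at 1866, 1702 and 1785 CPM in mutant day 3 and at 1180, 1146 and 1378 CPM in control day 3, against 78.7, 76.4 and 82.4 CPM in control day 0. Pdgfra, a receptor of mesenchymal progenitors, stood at 515, 442 and 499 CPM in mutant day 3, against 69.2, 70.8 and 64 CPM in control day 0. Cxcl12, a chemokine of bone marrow stroma, and Cd34, a sialomucin of stromal and vascular progenitors, rose by 3.09 and 2.59. Ctsk, whose promoter drives Cre here, rose by 0.44. Itgav, an integrin chain, Nes, nestin, and Nt5e, the CD73 antigen, fell by 1.83, 1.82 and 1.68. Nt5e stood at 1.72, 1.79 and 1.6 CPM in mutant day 3 and at 4.3, 6.75 and 5.78 CPM in control day 3, against 4.91, 6.29 and 5.27 CPM in control day 0, so that the mutant libraries alone were low. Eng, endoglin, was kept without a call, and Prrx1, a factor of limb and jaw mesenchyme, stood at 485, 470 and 513 CPM in mutant day 3 and 423, 442 and 431 CPM in control day 0. Reads of Ly6a may be shared with its close relatives.

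Jaw patterning genes, which mark the embryonic origin of the cells, had a mixed outcome: of 26 tested, 10 rose and 5 fell, and 4 were kept, of which Prrx1 was also called higher. Over all genes 33.7% were higher, 34.6% lower and 25.5% kept, so the share of higher members was near that of all genes. The count of lower genes is unstable, at 3 without the second control day 0 library, 3 among genes of at least 5 CPM and 8 with no filter, and Dlx5 and Dlx6 among them lost their calls in 6 of 14 and 3 of 13 alternative settings. Twist1, a factor of cranial mesenchyme, stood at 16.2, 20.4 and 18.5 CPM in mutant day 3, against 18.4, 20.2 and 19.2 CPM in control day 0. Pitx1 and Six2, homeobox factors of jaw mesenchyme, had log2 fold changes of 0.05 ± 0.15 each and were kept. Tbx15, Lhx8 and Foxc1, transcription factors of craniofacial skeleton, rose by 1.66, 1.54 and 1.46. Alx1, a frontonasal factor at low level, stood at 0.119, 0.577 and 0.229 CPM in mutant day 3, against 1.12, 1.06 and 1.16 CPM in control day 0.

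Cartilage and tendon genes moved in both directions, with 4 of 10 tested members higher and 5 lower, against 33.7% and 34.6% of all genes. Col2a1, the cartilage collagen, stood at 0.712, 0.577 and 0.858 CPM in mutant day 3 and at 6.53, 5.87 and 6.46 CPM in control day 3, against 27.8, 31.3 and 30.4 CPM in control day 0. Acan, the cartilage proteoglycan, had no read in mutant day 3 and was at least 17.3-fold lower than in control day 0, where it had 56 reads. Scx, a tendon factor, fell by 2.89. Comp, a matrix protein of cartilage and tendon, went the other way, at 151, 173 and 133 CPM in mutant day 3, against 8.17, 6.29 and 9.5 CPM in control day 0, and Sox9, the cartilage master factor, rose by 0.73. Mkx, a tendon factor, was kept. Adipocyte genes were split as well, with 3 of 7 tested members higher and 3 lower, against 33.7% and 34.6% of all genes. Adipoq had the largest change of that list, a rise of 5.08, and Fabp4, a fatty-acid carrier, rose by 2.91. Cd36, a fatty-acid importer that macrophages share, and Pparg, the adipocyte master factor, fell by 2.90 and 0.91.

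Signalling genes changed in both directions. Of 23 tested genes of BMP and TGF-beta signalling 13 fell, 5 rose and 4 were kept, against 34.6%, 33.7% and 25.5% of all genes. Inhba, the activin A subunit, stood at 48.2, 39.4 and 53.9 CPM in mutant day 3, against 407, 388 and 338 CPM in control day 0, and Tgfb3, Ltbp1 and Ltbp2, a ligand and latent-ligand binders, fell by 1.98, 1.85 and 1.60. The receptor Tgfbr1 and the inhibitor Smad7 fell by 1.57 and 1.58. The ligand Tgfb1 and the receptor Tgfbr2 were kept, at log2 fold changes of -0.04 ± 0.07 and 0.13 ± 0.05. In the Wnt list 8 of 21 rose, 8 fell and 3 were kept, shares near those of all genes for the calls. Sfrp1 and Sfrp2, secreted Wnt binders, rose by 2.90 and 2.59, Wnt5a and Dkk3 fell by 1.62 and 1.42, the receptor Fzd1 rose by 0.90, and the mediators Ctnnb1 and Tcf7l2 were kept.

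The growth-factor axis of IGF moved strongly in both directions, with 6 of 14 tested genes higher, 7 lower and 2 kept. The shares over all genes were 33.7%, 34.6% and 25.5%. Igf1 stood at 141, 127 and 132 CPM in mutant day 3, against 710, 736 and 737 CPM in control day 0. Igfbp3 stood at 47, 45.9 and 46.4 CPM in mutant day 3, against 2.77, 2.51 and 1.85 CPM in control day 0. The growth factor thus stood far lower and 1 of its carriers far higher. Igfbp2 fell by 2.07 and Igfbp5 was kept. In the network of imprinted genes, to which Plagl1 belongs, 4 of 14 rose, 6 fell and 3 were kept. Over all genes 33.7% were higher, 34.6% lower and 25.5% kept, so these counts do not set the network apart. The 6 include Plagl1 itself, and Mest among them lost its call in 5 of 14 alternative settings. Grb10, an adaptor that dampens insulin and IGF receptors, had a log2 fold change of 0.00 ± 0.05, and Impact was also kept.

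Energy and lipid metabolism kept more of the uninduced state than most lists. Among 15 tested glycolysis genes 8 were kept, among 18 genes of cholesterol and fatty acid synthesis 8, and among 16 genes of oxidative phosphorylation 8, against 25.5% of all genes. Ldha, lactate dehydrogenase, stood at 640, 637 and 578 CPM in mutant day 3, against 604, 618 and 654 CPM in control day 0. Fasn, fatty acid synthase, and Srebf2, the regulator of cholesterol synthesis, were kept at log2 fold changes of -0.09 ± 0.05 and -0.04 ± 0.05. Oxidative phosphorylation was nonetheless shifted as a list, with 14 of 16 genes higher and none lower at a median of 0.30. Cox6c, a subunit of cytochrome oxidase, rose by 0.54. Kept levels were shown more often for abundant genes, as given above. In the list for secretion through the endoplasmic reticulum 6 of 17 rose, 9 fell and 4 were kept. In that for the circadian clock 7 of 14 rose, 5 fell and 2 were kept. Over all genes 33.7% were higher, 34.6% lower and 25.5% kept. Of 12 common reference genes 8 were kept.

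The most abundant transcripts had shares near those of other well-expressed genes. Of the 100 autosomal genes with the highest level per length in control day 0, 36 were called higher and 43 lower in mutant day 3, and 42 were kept, against 38.5% of all genes of at least 50 CPM. At least 2-fold changes were found for 9 higher and 7 lower genes, against 10.9% and 9.44% of all genes, and 63 were also among the 100 highest in mutant day 3. Their reads made up 15.1% to 16.2% of the mutant libraries, against 16.4% to 16.5% of control day 0 libraries. Eef1a1, a translation factor, stood at 6551, 6141 and 6672 CPM in mutant day 3, against 7248, 7427 and 7304 CPM in control day 0, lower in each library but within 1.3-fold. Fth1, a ferritin chain, and Hmox1, which breaks down heme, rose by 1.74 and 2.05, and both belong to iron handling. Hspa5, the main chaperone of the endoplasmic reticulum, was called lower and kept, while Serpinh1, a chaperone of collagen, fell by 0.90.

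A small set of genes stood at the uninduced level in mutant day 3 while control day 3 did not. By a rule that used all 3 group means (kept in mutant day 3 against control day 0, at least 1.5-fold from day 0 in control day 3, and called between the genotypes at day 3), 14 genes qualified, and the 10 with the largest change in control cells are described without a test. Over all genes, 32.2% were called with at least 1.5-fold change in control day 3 against control day 0, 27.7% were kept there, and 17.6% were called between the genotypes at day 3. Peg3, an imprinted zinc-finger gene, stood at 18.3, 17 and 16.9 CPM in mutant day 3 and at 37.5, 39.8 and 36.3 CPM in control day 3, against 16.7, 18.3 and 16.2 CPM in control day 0. Pappa2, a protease that frees IGF from its carriers, stood at 65, 59.1 and 66.2 CPM in mutant day 3 and at 126, 144 and 139 CPM in control day 3, against 68.6, 67.7 and 68.2 CPM in control day 0. Mmp2, a gelatinase, stood at 235, 215 and 216 CPM in mutant day 3 and at 424, 412 and 419 CPM in control day 3, against 236, 230 and 222 CPM in control day 0. The mutant and day 0 libraries overlapped for Peg3 and Mmp2 and lay close for Pappa2, and induced control libraries stood above both. The other genes were Mylk, a kinase of smooth muscle myosin, Ptn, a growth factor of bone and nerve, the tendon factor Mkx, Sorbs2, Ndnf, Ghr, the growth hormone receptor, and Fzd8, a Wnt receptor. For Ptn the third mutant library, at 21.7 CPM, stood apart from 37.5 and 39.3 CPM in the other mutant libraries.

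**Figure D5:**
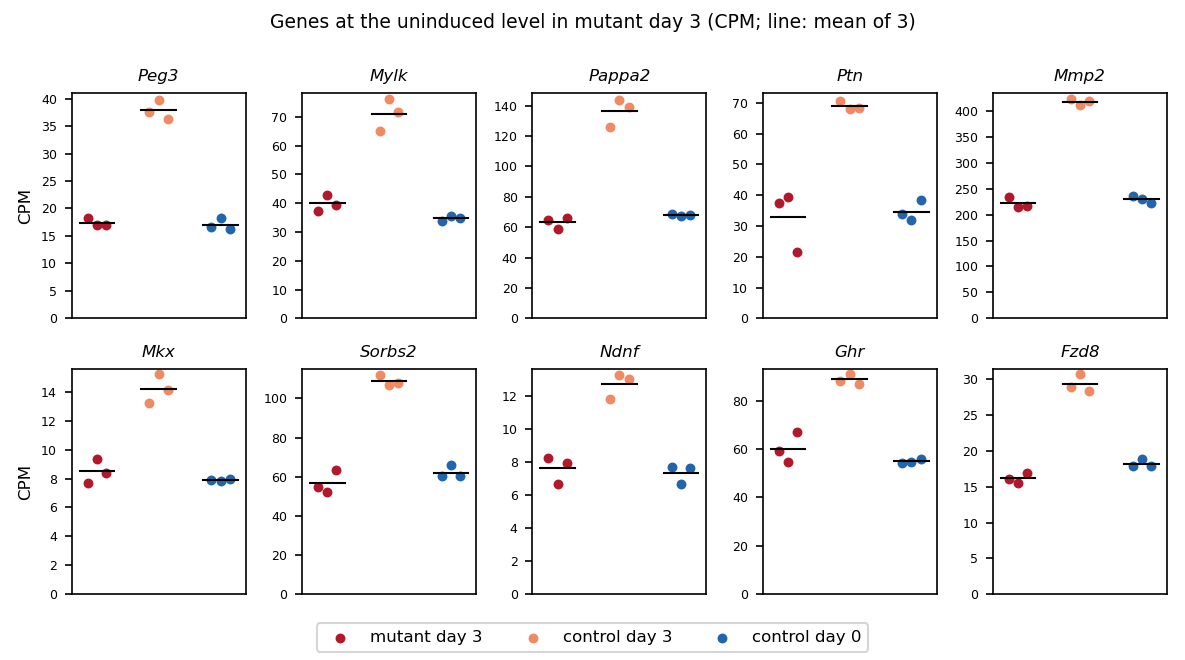
CPM by library of the 10 genes kept within 1.3-fold in mutant day 3 (dark red) relative to control day 0 (blue) and changed in control day 3 (orange); lines are means of 3 libraries and each axis starts at 0. Peg3, Pappa2 and Mmp2 are examples in which mutant day 3 and control day 0 lie side by side, with control day 3 above both.

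The converse also occurred: genes that induced control cells kept and mutant cells left. By the matching rule, with the same limits on level and symbol, 32 genes were lower and 4 higher in mutant day 3, and these too are a description. Sox6, a factor of cartilage and progenitors, stood at 2.79, 1.44 and 2.29 CPM in mutant day 3 and at 6.37, 6.85 and 6.46 CPM in control day 3, against 7.39, 6.35 and 5.85 CPM in control day 0. Ptprd, a receptor phosphatase, stood at 31.4, 26.6 and 32.6 CPM in mutant day 3 and at 68.9, 76.5 and 77.7 CPM in control day 3, against 73.8, 84.4 and 72 CPM in control day 0. Both control groups overlapped for these genes, and the mutant libraries lay below all of them. Gfra2, a receptor for neurturin, Epb41l4a and Tenm4, a teneurin, completed the 5 lowest. The 4 higher genes were Avpr1a, the vasopressin receptor, Adgrd1, an adhesion receptor, Ntn1, the guidance cue netrin 1, and Smpd3. Avpr1a stood at 18.7, 19.1 and 20.1 CPM in mutant day 3 and at 7.19, 6.75 and 7.95 CPM in control day 3, against 7.64, 8.3 and 7.47 CPM in control day 0.

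Markers of other cell types were also measured. All 24 macrophage markers passed the filter, and their summed level was 26352 to 29012 CPM in mutant day 3 and 25206 to 27466 CPM in control day 3, against 19925 to 20371 CPM in control day 0. All groups thus held macrophage transcripts in cultures labelled as progenitors, at a higher sum at day 3. Lyz2, lysozyme, alone stood at 14035, 12923 and 12155 CPM in mutant day 3, against 8463, 8410 and 8922 CPM in control day 0. The part of these cells in the differences described above, such as those of interferon, complement, cytokine and acute-phase genes, was not tested. For the lists of mitosis and replication it was not tested either.

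The macrophage markers themselves were split, with 15 higher and 9 lower of 24, against 33.7% and 34.6% of all genes. Control day 3 had 14 higher and 9 lower than control day 0. Adgre1, the F4/80 antigen, and Itgam, CD11b, rose by 1.65 and 2.25. Cx3cr1, the fractalkine receptor, stood at 0.119, 0.115 and 0 CPM in mutant day 3 and at 0, 0.206 and 0 CPM in control day 3, against 87.3, 83.9 and 79.1 CPM in control day 0. Mmp12, macrophage elastase, stood at 2.19, 0.866 and 2.23 CPM in mutant day 3, against 262, 342 and 320 CPM in control day 0. Clec7a, the receptor dectin-1, and Itgax, CD11c, had log2 fold changes of -4.85 and -4.77, and Ccr2, a monocyte chemokine receptor, of -5.05. The uninduced libraries were high for all 5 of these genes. Of 7 tested osteoclast genes 3 rose and 4 fell, against 33.7% and 34.6% of all genes. Acp5, the osteoclast phosphatase, rose by 4.33, while Atp6v0d2, a proton pump subunit needed for osteoclast fusion, fell by 3.44.

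Markers of further cell types were weak. Of 6 epithelial markers 5 had no read in mutant day 3 and 4 had none in control day 0, and their summed level was 0.115 to 0.172 CPM in mutant day 3, against 0.223 to 0.579 CPM in control day 0. Cd3e, of T cells, had 0 reads in both groups, and lymphocyte markers summed to 1.09 to 1.72 CPM in mutant day 3, against 20.7 to 22.1 CPM in control day 0. Cd28 and Cd4, the 2 lymphocyte markers tested, were both lower, at -6.72 and -2.19. The sum was also low in control day 3, at 1.03 to 1.62 CPM. A member could thus pass the read filter mainly through control day 0, and the 2 calls give no result for the list. Endothelial markers summed to 15 to 18.4 CPM in mutant day 3, against 24.2 to 28.6 CPM in control day 0. Of 6 tested, Vwf and Flt1 were lower, at log2 fold changes of -4.53 and -0.71, while Emcn, Pecam1 and Cdh5 were higher, at 1.90, 1.15 and 0.86. Skeletal muscle markers summed to 68.7 to 78.2 CPM in mutant day 3, against 32.7 to 38.4 CPM in control day 0. Markers of Schwann cells summed to 33.8 to 39.6 CPM in mutant day 3, against 35.8 to 42.1 CPM in control day 0.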

How the data were processed

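Per the submitters' processing notes, the authors trimmed and mapped reads with cutadapt, HISAT2 and HTSeq on genome build GRCm39; for tool versions and the strand setting the sources used here give nothing. A deposited table has raw read counts per gene, used for all tests, and FPKM values from the authors, which no result here uses. Its gene length column, also deposited, served to rank genes per length. Counts were fitted in edgeR 4.0.16 (R 4.3.3; filterByExpr with a minimum count of 10, TMM factors 0.96 to 1.07, 1 mean per group over 9 libraries) with the quasi-likelihood test. An adjusted p (Benjamini-Hochberg over 13013 genes) below 0.05 made a call, and "rose" and "fell" are used of such genes. CPM used TMM-scaled totals. Standard errors are the log2 fold change over the root of F. Intervals of log2 fold changes include the spread among libraries, while intervals of read ratios and floors (3 counts, or 0.155 to 0.185 CPM per library in control day 0) cover counting error only. The gene test was tested on simulated data. DESeq2 1.42.0, other scalings and filters, and leaving out libraries were the alternatives. The 37 gene lists (592 genes) and the comparison were chosen with earlier results of these data known. Named genes were Plagl1, the 15 largest changes each way (at least 5 CPM, no overlap), list members by p or narrow interval, abundant genes and the rules in the text; not all are printed. RefSeq promoters are of another build than the counts and were matched by symbol.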

Additional observations from a re-analysis of the deposited data

How the results depend on the processing

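Of 7785 values of 560 named or listed genes under 14 alternative settings, 7635 stayed on the same side of the threshold, 119 lost the call and 31 gained it. Among the 7635, 84 had another sign but were called under neither setting, and 0 called values reversed. Counts of higher and lower genes stayed within 1.5 times under every scaling, filter and test run, with 4112 and 4156 by DESeq2. Requiring a 2-fold change left 1367 higher and 1184 lower genes. Kept genes numbered 1553 with a band of 1.2-fold and 5715 with a band of 1.5-fold, so that count rests on the band chosen. Leaving out 1 library gave 3989 to 4236 higher, 4080 to 4278 lower and 2805 to 3171 kept genes. Libraries with the same number did not vary together (r = 0.0039, -0.15 and -0.11), and those with different numbers gave r up to 0.15. With 3 libraries per group such values cannot settle whether the numbers pair them. With the replicate number as a block 4153 genes were higher, 4267 lower and 3114 kept. Of 980 list counts 36 moved by over 1.5 times, mostly counts of few genes. Actb lost its call without the first mutant library (adjusted p = 0.0507). Depth limits what can be called kept: 0.287% of genes under 5 CPM were. The cause of these differences was not tested.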
